A study of Mus musculus with 15 samples.

Results

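The genes described here are 8 of the 27803 genes listed in the tables: the sterol regulators Srebf1 and Srebf2 and 6 enzymes of cholesterol synthesis, Hmgcs1, Idi1, Fdps, Fdft1, Sqle and Dhcr7. They were chosen by name, with earlier results of these data known, and all 8 are listed. Their transcripts were counted by Drop-seq in 15 mice, in 3 groups of 5. Drop-seq captures single cells in droplets with barcoded beads and counts each captured mRNA once by its unique molecular identifier (UMI). WT mice were C57BL/6 at postnatal day (P) 7, and whole-cell suspensions came from their cerebella. The other mice carried Math1-Cre:SmoM2/EYFPloxP/loxP (M-Smo), in which the Math1 promoter drives Cre in cerebellar granule neuron progenitors (CGNPs) and thereby switches on SmoM2, a constitutively active form of the Hedgehog signal transducer SMO. M-Smo mice were injected on 3 days with vehicle or with vismodegib, a small-molecule SMO inhibitor, at 75 mg/kg, and their medulloblastomas were taken at P15. Vehicle-treated tumors and WT cerebella therefore differ in genotype, age, injection of the NMP:PEG vehicle, microfluidic device and spike-in step, and these cannot be told apart, whereas both tumor groups share all of them.

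Cholesterol is made from acetyl-CoA through the mevalonate route, in which HMG-CoA synthase (Hmgcs1) acts early, isopentenyl diphosphate isomerase (Idi1) and farnesyl diphosphate synthase (Fdps) build the isoprenoid units, squalene synthase (Fdft1) and squalene epoxidase (Sqle) commit them to sterols, and 7-dehydrocholesterol reductase (Dhcr7) acts at the last step. SREBP2, the product of Srebf2, is a membrane-bound transcription factor that is released when cell sterol is low and activates these genes, while SREBP1, the product of Srebf1, acts more on fatty acid synthesis and is itself induced through liver X receptors (LXR). In brain, sterols are made locally, largely by astrocytes and by oligodendrocytes that build myelin. Sterols also bind SMO, so that Hedgehog signaling in CGNPs is tied to cholesterol.

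In GRCm38, Srebf1 lies on chromosome 11 (60199089 to 60222581, minus strand), Srebf2 and Sqle on chromosome 15 (82147181 to 82205379 and 59315077 to 59331192, plus strand), Hmgcs1 and Idi1 on chromosome 13 (119690379 to 119708260 and 8885501 to 8892451, plus strand), Fdps on chromosome 3 (89093588 to 89101959, minus strand), Fdft1 on chromosome 14 (63145150 to 63179578, minus strand) and Dhcr7 on chromosome 7 (143823145 to 143848410, plus strand). Drop-seq reads come from transcript ends, and the last 500 bases of each coding transcript were searched for 50-base stretches that other genes also hold. No shared stretch was found for Srebf2, Sqle or Dhcr7, and 1.82% of stretches were shared for Hmgcs1 and 6.65% for Srebf1. Those of Srebf1 were shared with Rai1, whose exons overlap those of Srebf1 by 109 bases on the opposite strand. For Fdps 74.0% were shared with Gm43738, which overlaps it on the same strand, and with further genes. For Idi1 43.2% were shared with 4 other genes, so the counts of Fdps and Idi1 are uncertain. The end of Fdft1 lies within exons of Ctsb on the opposite strand, which share 774 bases, and the sources used here do not say whether strand was used in counting. In WT microglia-like cells, named from marker genes, Ctsb had 1567 UMIs and Fdft1 0 of 201258 UMIs, and in the microglia-like cells of vehicle-treated and vismodegib-treated tumors Ctsb had 5839 and 10281 UMIs and Fdft1 5 and 9.

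Promoter sequences are shown for the regulators and for the early enzymes whose transcripts differed between tumors and WT, since SREBPs act at sterol regulatory elements that often lie next to CCAAT and GC boxes. Of the 8 genes, 5 matched an entry of the RefSeq promoters (GRCm38.p6), with 9 start sites in all, while Fdps, Fdft1 and Sqle are named only. The 250 bases before the start are printed on the strand of the gene, and capitals mark every match, on either strand, of TCACNCCAC (sterol regulatory element), CCAAT or GGGCGG. No matches overlapped.
Hmgcs1, chr13:119690101-119690350, plus strand: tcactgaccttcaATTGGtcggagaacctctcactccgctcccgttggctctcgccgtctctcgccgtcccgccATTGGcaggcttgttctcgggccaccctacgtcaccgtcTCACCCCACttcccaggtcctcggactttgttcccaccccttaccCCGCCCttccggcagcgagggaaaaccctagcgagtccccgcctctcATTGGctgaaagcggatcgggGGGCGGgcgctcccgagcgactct
Idi1, chr13:8885356-8885605, plus strand: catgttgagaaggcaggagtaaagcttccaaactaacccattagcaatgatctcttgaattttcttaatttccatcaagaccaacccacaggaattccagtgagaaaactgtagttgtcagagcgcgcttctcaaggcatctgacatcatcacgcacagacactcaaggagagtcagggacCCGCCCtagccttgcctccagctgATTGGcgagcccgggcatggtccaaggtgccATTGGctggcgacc
Srebf2, chr15:82147019-82147268, plus strand: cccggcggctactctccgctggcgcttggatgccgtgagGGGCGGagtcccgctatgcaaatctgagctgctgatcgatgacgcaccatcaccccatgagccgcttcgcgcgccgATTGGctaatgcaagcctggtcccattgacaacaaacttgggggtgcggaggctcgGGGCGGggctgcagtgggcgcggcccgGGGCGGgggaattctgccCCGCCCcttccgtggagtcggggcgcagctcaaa
Srebf1, chr11:60222582-60222831, minus strand, the outermost of its 3 starts: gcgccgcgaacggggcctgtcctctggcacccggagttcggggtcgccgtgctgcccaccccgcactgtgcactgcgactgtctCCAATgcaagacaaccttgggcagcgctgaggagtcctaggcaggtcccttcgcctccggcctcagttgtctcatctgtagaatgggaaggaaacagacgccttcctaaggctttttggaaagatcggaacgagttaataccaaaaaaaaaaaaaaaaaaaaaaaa
In the whole 300 bases, from 250 before the start to 50 after it, Hmgcs1 alone of the 5 genes held a match to TCACNCCAC. The match had the letters TCACCCCAC at position -137 from the start. Hmgcs1 also held 4 CCAAT and 3 GC boxes. TCACNCCAC occurred in 1.24% of 32817 promoters of this length, CCAAT in 37.4% and GGGCGG in 35.6%. Of the 9 promoters of the 5 genes, 6 held CCAAT and 7 held GGGCGG. No match to TCACNCCAC was found in 13 promoters of other cholesterol synthesis enzymes or in 8 of SREBP processing genes, Insig1 among them. The lack of a match to these letters therefore does not show that a sterol regulatory element is absent.

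Each table held from 904 to 9885 barcodes and from 2310474 to 17708677 UMIs. After quality filters 30722 tumor cells and 7224 WT cells were left, with medians of 1141 to 2597 UMIs per cell in tumors and 1082.5 to 1625 in WT. Any 2 libraries shared at most 6 barcodes. Cells were clustered without the 8 genes and 43 other sterol and fatty acid genes, and clusters were named from marker lists. Cells with granule neuron progenitor or granule neuron markers, called CGNP-like, formed 4 stages after the nodes used in the study. Node A-like cells were led by mitotic genes, Node B-like cells by Hedgehog targets and replication genes, Node C-like cells by genes of early granule neurons and Node D-like cells by genes of later granule neurons. Clusters led by globin genes, 1672 tumor cells and 877 WT cells, were left unnamed. The targets Ptch1 and Gli1 report on the drug: Ptch1 fell by 1.47 ± 0.23 (SE) on the log2 scale in CGNP-like cells of vismodegib-treated tumors (edgeR adjusted p = 0.00105), and Gli1 changed by -0.46 ± 0.33 (adjusted p = 0.424). A division of the tumors into 2 sets that no label gives had been made earlier from these data, and results of the drug are also given within these sets. The first set held vehicle replicates 1 and 3 and vismodegib replicates 1, 2 and 3. The first principal component of all genes, with 37.9% of the variance within groups, did not fully follow this division. Vismodegib replicate 3 lay at -2.36 on it, next to vehicle replicate 2 of the second set at -9.92, while the other tumors of the first set lay at 27.95 or above. Results of the drug on Srebf1 and Srebf2 in CGNP-like cells are therefore also given with vismodegib replicate 3 in the second set, a choice made after the values were seen.

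Srebf1 had the largest fold change in CGNP-like cells of the 8 genes tested against WT and of the 7 tested with vismodegib, where Idi1 was too scarce. In CGNP-like cells of WT cerebella it was listed at 44.8, 43.7, 27.2, 35.9 and 30.7 UMIs per 1000000 of the class (CPM) in replicates 1 to 5. In vehicle-treated tumors it stood at 519, 240, 240, 247 and 283 CPM, and in vismodegib-treated tumors at 196, 139, 91.2, 81.8 and 119 CPM. All 5 vehicle-treated tumors lay above all vismodegib-treated tumors, and these above all WT cerebella, with vehicle replicate 1 highest. Srebf1 was 2.95 ± 0.22 (SE) higher on the log2 scale in vehicle-treated tumors than in WT (edgeR quasi-likelihood test, adjusted p = 1.72e-07, n = 5 per group). It fell by 1.28 ± 0.25 with vismodegib (adjusted p = 0.0043), to a mean of 125 ± 45.3 (SD) CPM against 306 ± 121 CPM. Without vehicle replicate 1 the drug effect was -1.08 ± 0.21 (adjusted p = 0.00654), and within the tumor sets it was -1.41 ± 0.32 and -1.36 ± 0.18. With vismodegib replicate 3 in the second set these values were -1.19 ± 0.29 and -1.42 ± 0.16. The make-up of the class by stage differed between the tumor groups. Node D-like cells were 573 of 16473 with vehicle and 3508 of 10297 with vismodegib. Within Nodes A, B and C the drug effect on Srebf1 was -0.51, -0.55 and -2.13, called only in Node C. The part of the make-up in the effect on the whole class was not tested.

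Srebf2 was lower in the tumors. Its levels in CGNP-like cells were 80.3, 93.6, 75.1, 56.7 and 93.1 CPM in WT, 43.6, 27.3, 50.3, 26.1 and 17.97 CPM in vehicle-treated tumors and 61.9, 85.5, 49.2, 29.0 and 30.2 CPM in vismodegib-treated tumors. Every vehicle-treated tumor lay below every WT cerebellum, and the treated tumors overlapped both. The log2 fold change of vehicle against WT was -1.37 ± 0.24 (edgeR adjusted p = 0.000332), and that of vismodegib against vehicle was 0.63 ± 0.32 (adjusted p = 0.244). With vismodegib replicate 3, at 49.2 CPM, counted in the first set, the tumors of that set lay at 43.6 CPM or above and those of the second at 30.2 CPM or below, and with it in the second set the sets overlapped. Within the sets the drug effect on Srebf2 was 0.48 ± 0.24 and 0.33 ± 0.20, and with the set as a term 0.42 ± 0.17 (adjusted p = 0.107). With vismodegib replicate 3 in the second set, these were 0.63 ± 0.25, 0.55 ± 0.24 and 0.61 ± 0.18. The last was called (edgeR adjusted p = 0.0252). Since the sets were made from these data and replicate 3 was moved after the values were seen, this call is a description only.

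**Figure D1:**
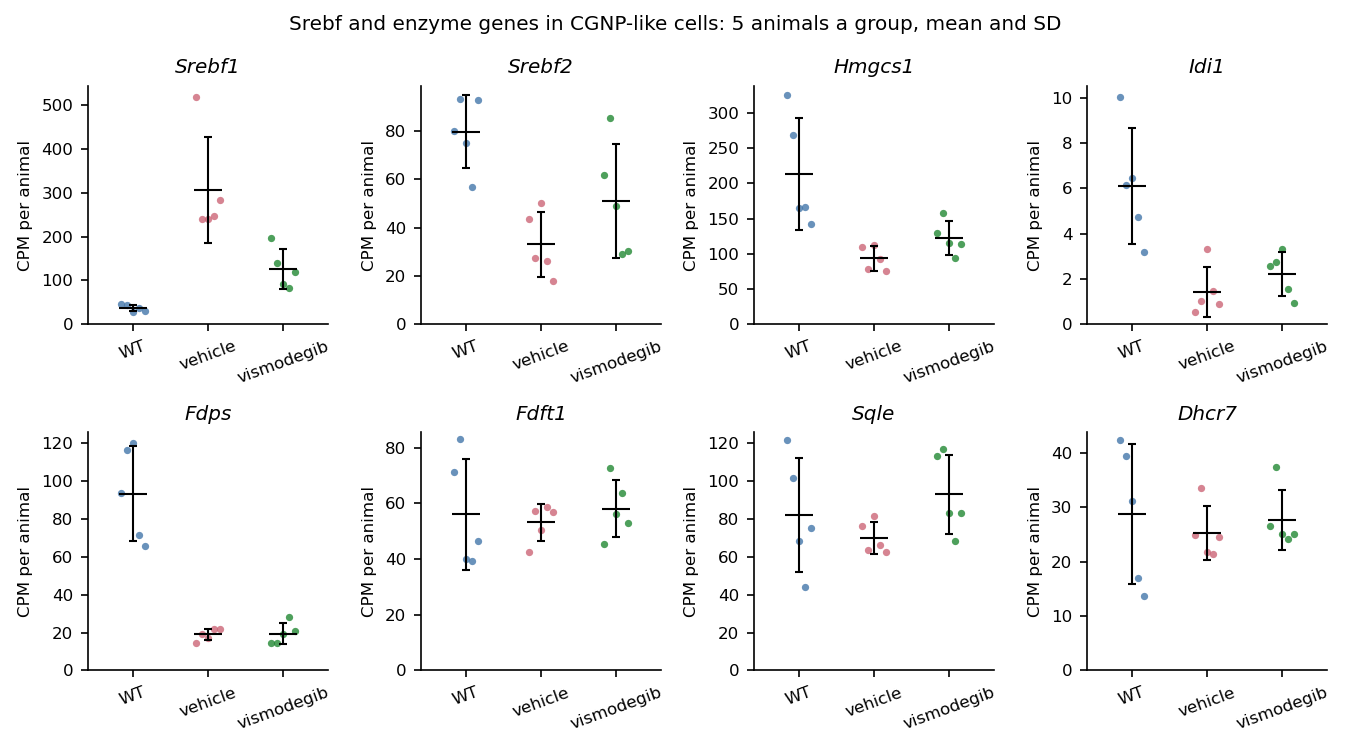
Levels of the 8 genes in CGNP-like cells, in CPM, with 1 panel a gene, 1 point an animal, and the mean with SD as bars for 5 WT, 5 vehicle-treated and 5 vismodegib-treated animals. Srebf1 lay at 27.2 to 44.8 CPM in WT, 240 to 519 in vehicle-treated and 81.8 to 196 in vismodegib-treated tumors, while Fdps lay at 65.6 to 120 CPM in WT and at 14.3 to 28.2 CPM over both tumor groups.

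Of the 8 genes, 5 passed the test between vehicle-treated tumors and WT in CGNP-like cells, 1 higher and 4 lower. Over all 12384 genes tested, 43.8% passed, 20.9% higher and 22.9% lower, so that a change as such is common in this comparison. The median log2 fold change was -0.80 over the 8 genes and 0.05 over all genes. Beside Srebf1 and Srebf2 the called genes were the early enzymes Hmgcs1, Idi1 and Fdps, while the later enzymes Fdft1, Sqle and Dhcr7 did not pass.

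Hmgcs1, which makes HMG-CoA, stood at 326, 269, 166, 166 and 143 CPM in WT and at 110, 78.3, 112, 91.8 and 74.7 CPM in vehicle-treated tumors. The groups did not overlap, and the log2 fold change was -1.29 ± 0.20 (edgeR adjusted p = 0.000133). Idi1, which interconverts the isoprenoid units, was scarce, at 3.17 to 10.04 CPM in WT and 0.51 to 3.30 CPM in vehicle-treated tumors, and its log2 fold change was -2.30 ± 0.47 (adjusted p = 0.000998). The highest tumor value of Idi1 lay just above the lowest WT value. Fdps, which joins these units to farnesyl diphosphate, had 93.6, 116, 120, 71.8 and 65.6 CPM in WT and 14.8, 19.2, 17.3, 22.0 and 22.0 CPM in vehicle-treated tumors, a log2 fold change of -2.36 ± 0.21 (adjusted p = 7.26e-07). Fdps and Idi1 share stretches with the other genes described above, and barcodes of tumor cells were first chosen in a mixed-species alignment. The part of either in these differences was not tested, and the size of the differences is uncertain.

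The sterol-committed steps lay closer together. Fdft1 averaged 56.1 ± 19.96 (SD) CPM in WT and 53.2 ± 6.76 CPM in vehicle-treated tumors, with a log2 fold change of -0.15 ± 0.20. Sqle, the epoxidase, averaged 82.2 ± 30.2 and 70.1 ± 8.41 CPM (-0.31 ± 0.21), and Dhcr7 28.7 ± 12.9 and 25.3 ± 4.90 CPM (-0.27 ± 0.27). None of these differences passed the test (adjusted p from 0.231 to 0.561). That of Sqle was called without WT replicate 4 (adjusted p = 0.0491) and lay between -0.47 and -0.11 when single animals were left out, and the WT animals spread over wider ranges than the tumors, from 43.9 to 122 CPM for Sqle and from 13.8 to 42.3 CPM for Dhcr7.

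With vismodegib, Srebf1 was the 1 gene called of the 7 tested in CGNP-like cells, where Idi1 was too scarce to test. Of 12374 genes 12.7% passed, 8.4% higher and 4.3% lower. The median log2 fold change was 0.13 over the 7 genes and 0.00 over all. Hmgcs1 stood at 130, 158, 116, 94.0 and 113 CPM in treated tumors, a log2 fold change of 0.39 ± 0.16 (edgeR adjusted p = 0.129). Sqle stood at 113, 117, 83.2, 68.6 and 83.3 CPM against 76.5, 63.6, 81.5, 66.5 and 62.6 CPM with vehicle (0.40 ± 0.15, adjusted p = 0.108). Both groups overlapped for each gene. With vismodegib replicate 3 in the second tumor set and the set as a term, 4 of 8 genes tested were called, Srebf1 lower and Srebf2, Hmgcs1 and Sqle higher, and 2691 genes in all were called in place of 1572. There Hmgcs1 had a log2 fold change of 0.39 ± 0.11 (edgeR adjusted p = 0.0241) and Sqle of 0.39 ± 0.11 (adjusted p = 0.0222). The sets were made from these data and vismodegib replicate 3 was moved after the values were seen. The calls with this set term are therefore a description only. Fdps, Fdft1 and Dhcr7 had log2 fold changes of 0.06 ± 0.23, 0.13 ± 0.16 and 0.13 ± 0.18. On simulated counts with these depths and spreads, 4-fold changes were recovered for 96.9% of genes in this comparison, 2-fold changes for 41.8% and 1.5-fold changes for 3.12%.

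The stages of the CGNP-like class differed in Srebf1, and the numbers of cells in them differed between the tumor groups: Node B-like cells numbered 566 to 3463 per vehicle-treated tumor and 183 to 658 per treated tumor, and Node D-like cells 86 to 183 and 147 to 1458. In vehicle-treated tumors the mean of Srebf1 was 417 ± 140.001 CPM (SD) for Node B, 243 ± 77.2 for Node A, 228 ± 79.1 for Node C and 20.4 ± 13.2 for Node D. The 3 earlier stages overlapped, and each of their tumors lay above every Node D-like value. In WT the order of the means was the same, at 69.3 ± 15.9, 44.1 ± 19.4, 19.3 ± 8.96 and 14.2 ± 7.71 CPM, and each pair of neighbors in it overlapped.

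Of Nodes A, B and C, the stages in which Srebf1 could be tested, the drug effect was largest in Node C-like cells, the early postmitotic neurons. Srebf1 stood there at 355, 143, 218, 189 and 232 CPM with vehicle and at 63.8, 51.9, 33.1, 39.6 and 67.4 CPM with vismodegib, and at 8.77 to 31.3 CPM in WT. The tumor groups did not overlap, and Srebf1 fell by 2.13 ± 0.24 on the log2 scale (edgeR adjusted p = 0.000287). It was the 1 gene called of 7 tested, where 2.88% of 9533 genes passed, 1.49% higher and 1.4% lower. These 275 genes became 112 without vismodegib replicate 4, 129 without vehicle replicate 5, 161 without vismodegib replicate 5 and 175 without vehicle replicate 2. The effect was -2.52 ± 0.27 and -1.84 ± 0.25 within the tumor sets. In Node A-like cells the log2 fold change was -0.51 ± 0.21 (adjusted p = 0.336) and in Node B-like cells -0.55 ± 0.20 (adjusted p = 0.188), and both groups overlapped. The effect in Node C-like minus that in Node A-like cells was -1.58 ± 0.14 on the log2 scale (edgeR class by treatment term with the tumor as block, adjusted p = 7.67e-11), where 6.28% of 10665 genes differed, 2.8% higher and 3.48% lower. This pair of stages was chosen for the test after the values were seen.

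**Figure D2:**
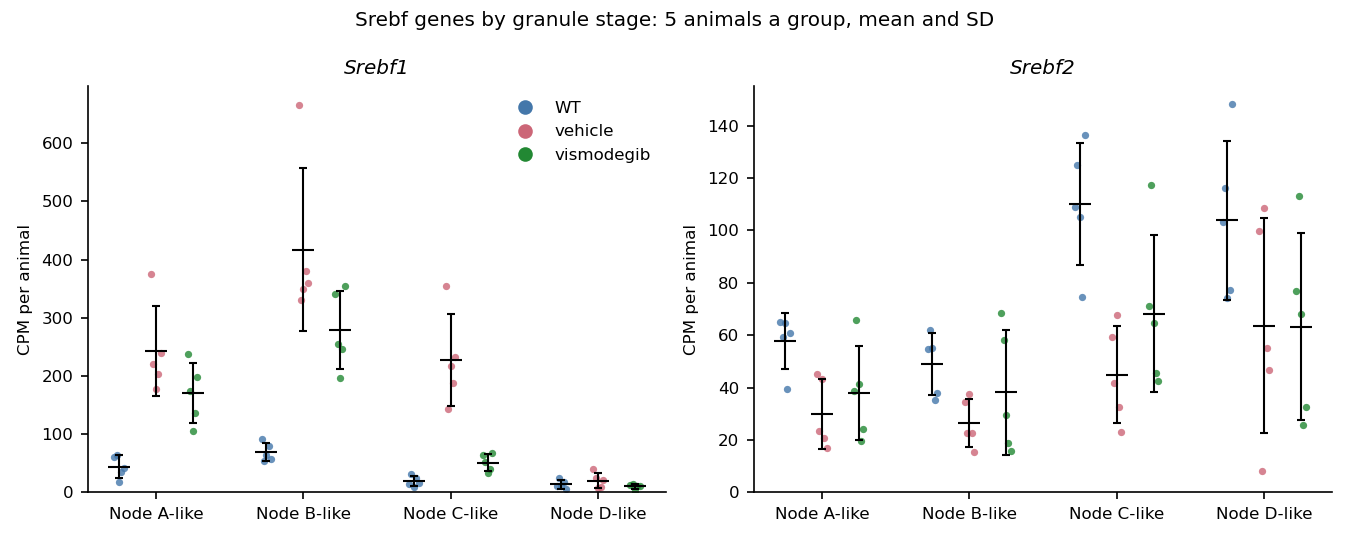
Srebf1 (left) and Srebf2 (right) levels in CPM by granule stage, 1 point an animal, with mean and SD over 5 animals per group. In Node C-like cells Srebf1 lay at 143 to 355 CPM with vehicle and at 33.1 to 67.4 CPM with vismodegib, whereas Srebf2 was highest in WT cells of Nodes C and D.

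No other gene of the 8 passed the drug test in a stage. In Nodes A, B and D none was called by edgeR or DESeq2, of 7, 7 and 3 tested, and 1, 2 and 1 had an unadjusted p under 0.05. The background was 2.2% of genes for Node A (0.624% higher, 1.58% lower), 3.37% for Node B (1.22% and 2.14%) and 0.04% for Node D, all lower. The 322 genes called in Node B became 193 without vehicle replicate 5, and the 2 called in Node D became 0 without vehicle replicate 1 or 2 or vismodegib replicate 3 or 4, and 1 without vehicle replicate 3, 4 or 5 or vismodegib replicate 2 or 5. Hmgcs1 in Node D-like cells had 79.8, 96.9, 79.5, 73.5 and 46.8 CPM with vehicle and 188, 189, 114, 70.9 and 91.1 CPM with vismodegib (log2 fold change 0.76 ± 0.31, adjusted p = 0.897). Between Node D-like and Node A-like cells the drug effect differed for none of the 7 genes tested by edgeR or DESeq2, with 1 at an unadjusted p under 0.05, where 1.76% of 9957 genes passed, 1.11% higher and 0.643% lower. These 175 genes became 102 without vehicle replicate 5 and 112 without vismodegib replicate 4.

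Against WT, Srebf1 was higher in vehicle-treated tumors in Nodes A, B and C, by 2.25 ± 0.24, 2.35 ± 0.24 and 3.31 ± 0.28 on the log2 scale, and too scarce to test in Node D. In these 3 stages 4 of 7 genes tested were called, Srebf1 higher and Srebf2, Hmgcs1 and Fdps lower. The background was 34.7% of genes in Node A (16.8% higher, 17.9% lower), 25.6% in Node B (11.6% and 14%) and 30.5% in Node C (14.6% and 15.9%). The log2 fold changes of Srebf2 were -1.12 ± 0.28, -1.08 ± 0.32 and -1.47 ± 0.26 in the 3 stages. In Node D-like cells 2 of 4 genes tested were called, both lower, where 28.2% of genes were called and 13.7% lower: Hmgcs1 fell by 1.99 ± 0.31 and Fdps fell by 2.13 ± 0.34. Srebf2 had a log2 fold change of -0.83 ± 0.35 in Node D (edgeR adjusted p = 0.0741) and was called under 4 of 17 alternatives, without vehicle replicate 1, without vehicle replicate 3, at resolution 1.2 and without the filter on low counts. Idi1 was not found in Node D-like cells of vehicle-treated tumors, where 0 of 815480 UMIs allow up to 3.68 CPM. In Node B-like cells, which had as few as 105611 UMIs in a WT animal, the calls of Srebf2 and Hmgcs1 were lost without WT replicate 2, that of Srebf2 also without WT replicate 3 and that of Hmgcs1 also without WT replicate 1.

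**Figure D3:**
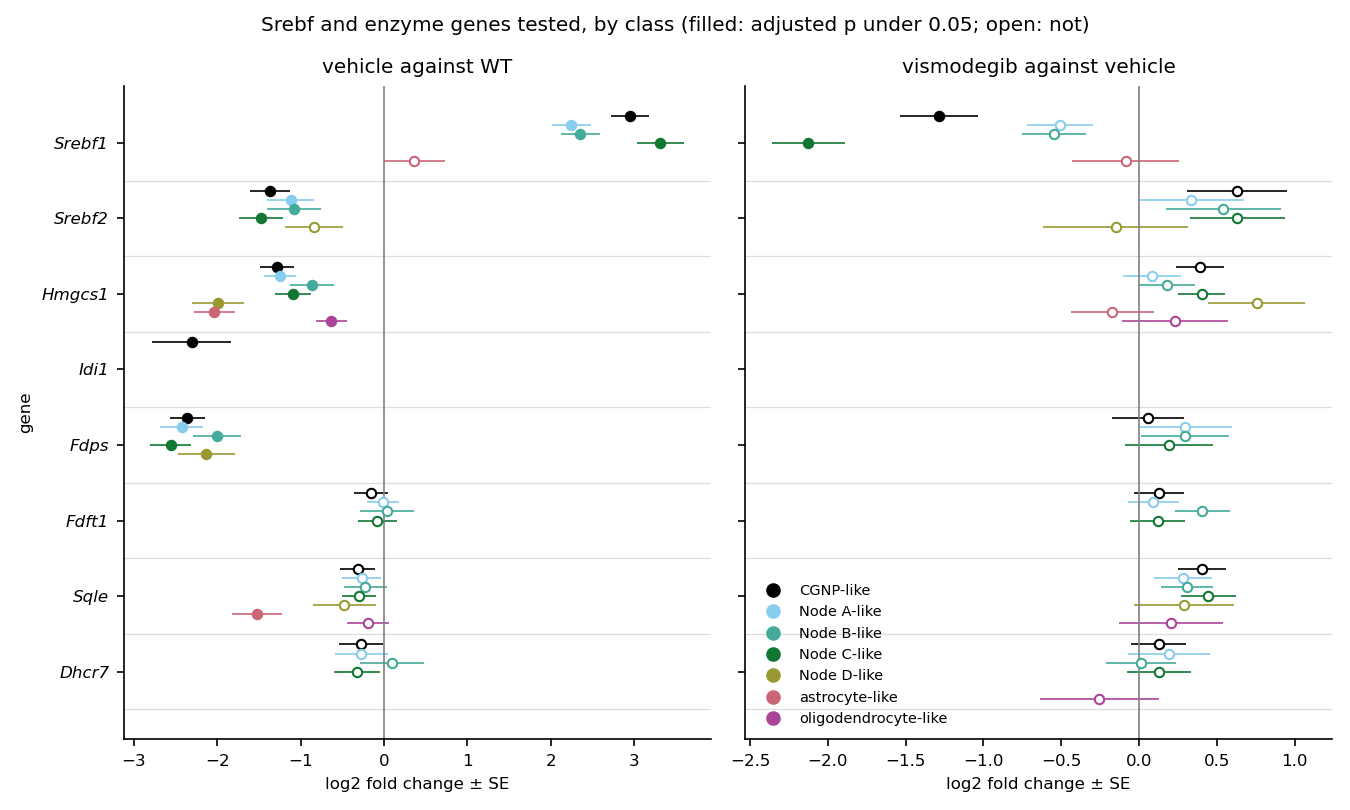
Log2 fold changes with SE for each gene that could be tested, by cell class in color, for vehicle against WT (left) and vismodegib against vehicle (right), from 5 animals per group, with filled points at an adjusted p under 0.05. Against WT, Srebf1 was 2.25 to 3.31 higher in Nodes A to C, while with vismodegib the filled points are Srebf1 in CGNP-like (-1.28) and Node C-like cells (-2.13).

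Outside the CGNP-like class, the enzymes were most abundant in glia of WT cerebella. Summed over the 6 enzymes, WT astrocyte-like cells had 1190 ± 138 (SD) CPM, maturing oligodendrocyte-like cells 1226 ± 399 and oligodendrocyte progenitor-like cells 930 ± 277 CPM, against 481 ± 151 CPM in CGNP-like cells. Purkinje-like cells had 270 ± 66.5, GABAergic progenitor-like cells 240 ± 86.9 and GABAergic interneuron-like cells 234 ± 87.3 CPM, and vascular fibroblast-like, endothelial-like and microglia-like cells 191 ± 44.5, 129 ± 95.8 and 91.6 ± 82.4 CPM. The sums of the 3 glial classes overlapped each other, those of oligodendrocyte progenitor-like and CGNP-like cells also overlapped, and every glial sum lay above every sum of the Purkinje-like, GABAergic, vascular and microglia-like cells. These levels rest on 18 to 948 UMIs per class outside the CGNP-like class and are given as a description.

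In astrocyte-like cells the summed enzyme level was 310 ± 96.8 CPM in vehicle-treated and 307 ± 19.8 CPM in vismodegib-treated tumors, with every tumor below every WT animal. Hmgcs1 alone stood at 846, 858, 733, 741 and 862 CPM in WT and at 158, 149, 121, 322 and 198 CPM in vehicle-treated tumors. Sqle stood at 139, 187, 131, 129 and 142 CPM and at 98.7, 45.9, 34.6, 42.9 and 48.9 CPM. Neither gene's groups overlapped. Hmgcs1 fell by 2.03 ± 0.25 on the log2 scale (edgeR adjusted p = 5.88e-06) and the log2 fold change of Sqle was -1.52 ± 0.30 (adjusted p = 0.000974), 2 of 3 genes tested, where 23.3% of 2493 genes passed, 12.1% lower. Idi1 had 0 of 764748 UMIs in vehicle-treated tumors, which allows up to 3.92 CPM, and 9.62 ± 8.51 CPM in WT. Without a filter on low counts 4 of the 8 genes were called in this class, where 1282 of 18220 genes passed in place of 580, or 7.04%.

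The astrocyte-like cells numbered 32 to 131 per WT animal and 16 to 146 per vehicle-treated tumor. All 12 astrocyte markers were detected in every WT animal and at least 11 in every tumor. Their summed level was 23193 to 25495 CPM in WT and 7881 to 25575 CPM with vehicle, where vehicle replicates 1 and 3 had 7972 and 7881 CPM and the other tumors 21867 CPM or more. In those other tumors, vehicle replicates 2, 4 and 5, Hmgcs1 and Sqle also lay below every WT animal. Markers of Node B-like cells, 13 genes, summed to 700 to 815 CPM in WT and to 1686 to 3681 CPM with vehicle. Whether these markers have a part in the lower enzyme levels was not tested. The summed enzyme level of Node B-like cells in the same tumors was 204 ± 16.2 CPM.

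Srebf1 in astrocyte-like cells stood at 104, 205, 84.9, 76.4 and 201 CPM in WT, 335, 103, 259, 100 and 133 CPM with vehicle and 213, 205, 70.9, 146 and 147 CPM with vismodegib. All 3 groups overlapped, and the highest vehicle values were those of replicates 1 and 3, the tumors with the low astrocyte marker sums in this class. The part of these markers in the Srebf1 levels was not tested. The log2 fold change was 0.36 ± 0.37 for vehicle against WT (edgeR adjusted p = 0.514) and -0.09 ± 0.34 for vismodegib against vehicle (adjusted p = 0.961). None of the 2 genes tested with vismodegib was called by edgeR or DESeq2, and none had an unadjusted p under 0.05, where 0.491% of 2647 genes passed, 0.264% higher and 0.227% lower. This background of 13 genes became 1 without vehicle replicate 5, 3 without vismodegib replicate 1 or 4, 8 without vismodegib replicate 3 and 105 without the filter on low counts.

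The difference between astrocyte-like and CGNP-like cells was tested directly, with the animal as block. The drug effect on Srebf1 was 1.43 ± 0.25 higher on the log2 scale in astrocyte-like than in CGNP-like cells (edgeR class by treatment term, adjusted p = 0.000115), where 2.29% of 11562 genes differed, 1.11% higher and 1.18% lower. These 265 genes became 150 without vehicle replicate 5 and 138 without vismodegib replicate 4. Srebf1 was the 1 gene of 7 called, and the difference was 0.57 and not called once the sums were thinned to 1 depth. The CGNP-like sums held 573 Node D-like cells of 16473 with vehicle and 3508 of 10297 with vismodegib. Within Nodes A, B and C the drug effect on Srebf1 was -0.51, -0.55 and -2.13. The part of the make-up of the CGNP-like class in the difference was not tested. For vehicle against WT, a comparison added after the values were seen, the change in astrocyte-like cells minus that in CGNP-like cells was -2.53 ± 0.30 for Srebf1 (adjusted p = 1.17e-09) and -1.15 ± 0.34 for Sqle (adjusted p = 0.0247). Here 6.72% of 9787 genes differed, 4.16% higher and 2.56% lower. For Hmgcs1 the difference was -0.69 ± 0.24 (adjusted p = 0.0757), and it was called under 5 of 17 alternatives, without WT replicate 1, vehicle replicate 4 or vehicle replicate 5, without the filter on low counts and with the globin-led clusters kept (lowest adjusted p = 0.0118), with a range from -0.998 to -0.204 over all 17. The call of Sqle was lost without WT replicate 2 or without WT replicate 4.

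**Figure D4:**
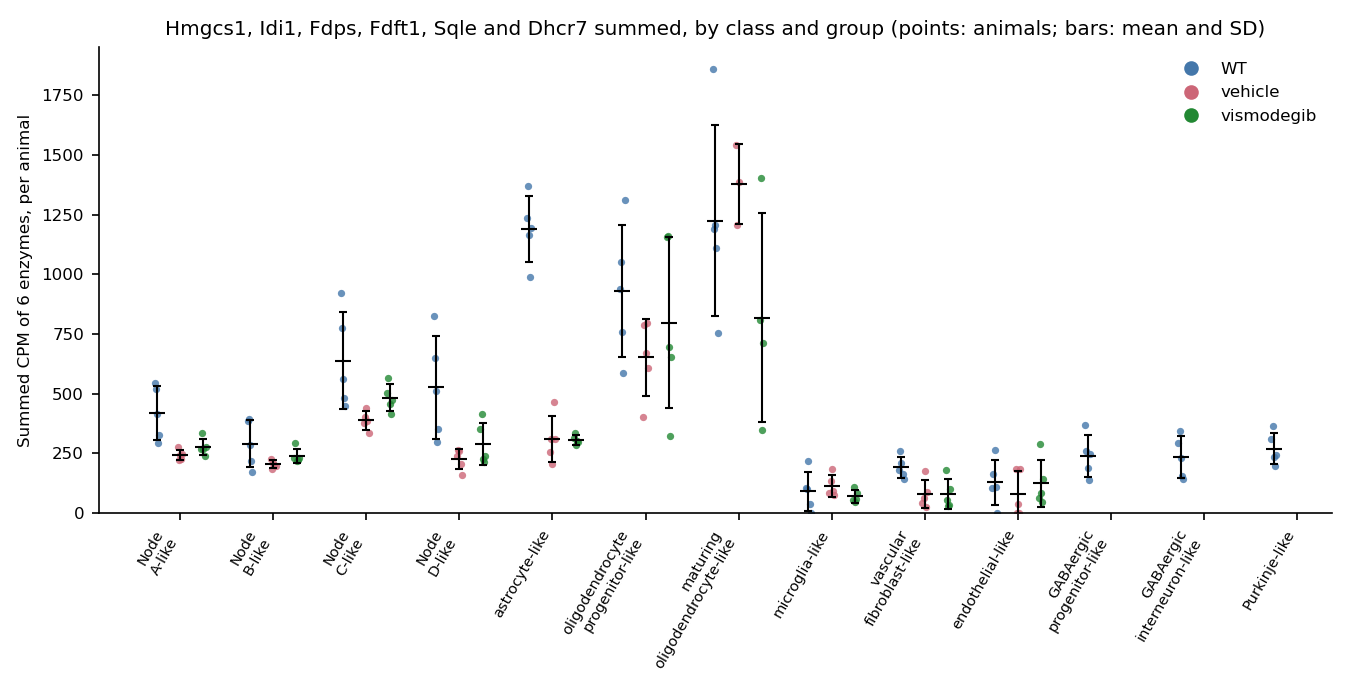
Summed level of the 6 enzymes in CPM by cell class, 1 point an animal with at least 5 cells of the class, with mean and SD per group. In astrocyte-like cells WT animals averaged 1190 CPM and both tumor groups 310 and 307 CPM, while maturing oligodendrocyte-like cells of vehicle-treated tumors averaged 1379 CPM over 3 animals, in clusters that do not match those named maturing in WT.

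In oligodendrocyte-like cells, progenitors and maturing cells together, the summed level was 1067 ± 179 CPM in WT, 738 ± 116 CPM with vehicle and 871 ± 374 CPM with vismodegib. Hmgcs1 stood at 727, 528, 502, 514 and 551 CPM in WT, 347, 445, 312, 463 and 348 CPM with vehicle and 471, 735, 553, 113 and 392 CPM with vismodegib. WT and vehicle did not overlap, and Hmgcs1 fell by 0.63 ± 0.19 on the log2 scale in vehicle-treated tumors (edgeR adjusted p = 0.0136), 1 of 2 genes tested, where 26.7% of 2408 genes passed, 13.8% lower. The call was lost without WT replicate 1 (log2 fold change -0.53), without vehicle replicate 5 (-0.55), without the filter on low counts (-0.63) and in progenitor-like cells alone (-0.50, adjusted p = 0.166). The last setting did not compare like with like. In tumors a cluster of 107 cells led by Gpr17 and Bmp4, with Lims2, was named progenitor-like, while in WT a cluster of 56 cells led by Lims2, Bcas1 and Bmp4, with Gpr17, was named maturing. The fold change lay between -0.69 and -0.50 under all alternatives. Of the cells of the class, 141 of 241 in WT and 382 of 416 with vehicle were named progenitor-like, and for the same reason these numbers cannot be set against each other. With vismodegib none of 3 genes tested was called by edgeR or DESeq2, and none had an unadjusted p under 0.05, where 5.15% of 2738 genes passed, 3.47% higher and 1.68% lower. This background of 141 genes became 77 without vismodegib replicate 5, 252 without vismodegib replicate 4 and 5 in progenitor-like cells alone. Within the class, progenitor-like cells numbered 30 to 186 per vehicle-treated tumor and 5 to 37 per vismodegib-treated tumor.

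In microglia-like, endothelial-like and vascular fibroblast-like cells no gene of the 8 had enough UMIs for the test in either comparison. Of the genes tested in these classes 20.7%, 23.5% and 32.3% passed for vehicle against WT, and 0.0655%, 0% and 1.23% for vismodegib against vehicle. Srebf1 averaged 68.1 ± 53.9 CPM in microglia-like and 98.6 ± 68.9 CPM in vascular fibroblast-like cells of vehicle-treated tumors, from 35 and 36 UMIs. Over all cells of the same tumors Srebf1 stood at 226 to 479 CPM, and free RNA in the droplets can add UMIs to any class, so that these levels cannot be read as expression. The part of free RNA was not tested. In classes of the same libraries Srebf1 was lower still, at 20.4 ± 13.2 CPM in Node D-like and 33.2 ± 16.4 CPM in oligodendrocyte progenitor-like cells. In microglia-like and vascular fibroblast-like cells of vehicle-treated tumors, Fdps averaged 4.05 ± 5.56 and 1.10 ± 2.47 CPM. These Fdps levels rest on 4 UMIs and 1 UMI. At these depths most of the enzymes were at the edge of detection.

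Beyond the 8 genes, 43 genes of the same biology were read in CGNP-like cells from lists of other enzymes, SREBP processing, uptake and transport, efflux and LXR, and fatty acid synthesis. In this comparison 43.8% of all genes passed, 20.9% higher and 22.9% lower. Of 14 other cholesterol enzymes, 4 were called for vehicle against WT, 2 higher and 2 lower, with a median log2 fold change of -0.13. Among them Mvd, which makes isopentenyl diphosphate, fell by 1.33 ± 0.23 (edgeR adjusted p = 0.000227), while Hsd17b7 and Ebp, late enzymes, rose by 0.94 ± 0.24 and 0.88 ± 0.26. Of 5 genes of SREBP processing, Insig1, the sterol-induced retention protein that is itself an SREBP target, fell by 1.63 ± 0.21 (adjusted p = 2.05e-05), and the protease Mbtps1 and the escort Scap rose by 0.81 ± 0.23 and 0.69 ± 0.25. The median of this list was 0.49.

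Of 6 genes of sterol uptake and transport, 4 were called for vehicle against WT, 3 higher and 1 lower, against the same background of 43.8%. Stard4, a sterol carrier, rose by 0.91 ± 0.16 on the log2 scale, and the lysosomal exporters Npc1 and Npc2 by 0.86 ± 0.28 and 0.58 ± 0.16. The median was 0.51. Of 10 genes of fatty acid synthesis, Elovl6, Fasn and Scd2 rose by 1.42 ± 0.19, 1.17 ± 0.24 and 0.56 ± 0.15 and Me1, the malic enzyme, fell by 1.61 ± 0.39, with a median of 0.34. None of 6 efflux and LXR genes tested was called by edgeR or DESeq2, and none had an unadjusted p under 0.05.

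The stages were not in the same proportion in the groups, with 845 Node B-like cells of 4183 in WT and 7676 of 16473 with vehicle, and 980 and 573 Node D-like cells. Within Nodes A to D, edgeR called 2 of 13, 0 of 13, 4 of 14 and 2 of 6 other enzymes for vehicle against WT, and in Node B DESeq2 also called 0 and 6 had an unadjusted p under 0.05. It called 2 of 5, 1 of 5, 2 of 5 and 1 of 2 genes of SREBP processing, 2 of 6, 2 of 4, 2 of 4 and 0 of 1 of uptake and transport and 3 of 8, 3 of 7, 2 of 7 and 1 of 3 of fatty acid synthesis, where 34.7%, 25.6%, 30.5% and 28.2% of all genes passed. Insig1 fell in all 4 stages, with log2 fold changes from -2.26 to -1.57, and Elovl6 rose in all 4, from 0.70 to 1.71. Fasn rose in Nodes A to C, by 0.87 to 1.24, and was not tested in Node D. Mvd fell in Nodes A and C, with log2 fold changes of -1.52 ± 0.27 and -1.12 ± 0.24, Scd2 rose in Nodes A and B, Stard4 rose in Nodes A and B, Ebp rose in Nodes C and D, Hsd17b7 and Mbtps1 rose in Node A, and Npc1 and Scap rose in Node C. In Node D, DESeq2 called neither Elovl6 nor Ebp. Npc2 was called in no stage by edgeR or DESeq2, with log2 fold changes from 0.05 to 0.41. Me1 was too scarce to test within stages.

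With vismodegib, where 12.7% of all genes passed, 8.4% higher and 4.3% lower, 2 of the 14 other enzymes rose in CGNP-like cells, Tm7sf2, a sterol reductase, by 1.09 ± 0.22 (edgeR adjusted p = 0.00544) and Mvd by 1.05 ± 0.21 (adjusted p = 0.0042), and none fell. The median was 0.10. Of 6 uptake and transport genes, 3 were called, 1 higher and 2 lower, with a median of -0.18, and the lower ones were the lipoprotein receptor Scarb1 (-1.01 ± 0.19) and Npc2 (-0.52 ± 0.16). Of 7 efflux and LXR genes tested, Cyp46a1, the cholesterol hydroxylase of neurons, rose by 2.40 ± 0.39 (adjusted p = 0.00143) and Abcg1, a sterol exporter, by 1.76 ± 0.36 (adjusted p = 0.00532). None of 5 SREBP processing or 10 fatty acid genes was called by edgeR or DESeq2, with 0 and 1 at an unadjusted p under 0.05. In means, Cyp46a1 stood at 1.70 ± 0.73 CPM with vehicle and 8.26 ± 3.85 CPM with vismodegib, and Abcg1 at 6.54 ± 2.23 and 21.4 ± 10.8 CPM.

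The make-up of the CGNP-like class differed between the same groups, with 573 Node D-like cells of 16473 with vehicle and 3508 of 10297 with vismodegib, and its part in these sums was not tested beyond the values within stages. Within the stages, no efflux or LXR gene was called by edgeR or DESeq2 in Nodes A to D, of 3, 3, 4 and 2 tested, with 1, 0, 2 and 1 at an unadjusted p under 0.05. Abcg1 had log2 fold changes of 0.61 ± 0.34 in Node C-like (edgeR adjusted p = 0.448) and -0.11 ± 0.30 in Node D-like cells (adjusted p = 0.998), and Cyp46a1 was too scarce to test in each stage. Of the other enzymes 0 of 14, 0 of 13 and 0 of 7 were called in Nodes A, B and D by either tool, with 1, 0 and 0 at an unadjusted p under 0.05, and in Node C 1 of 14, Tm7sf2, which rose by 0.85 ± 0.20 (edgeR adjusted p = 0.0343), while DESeq2 called 2 of 14, Tm7sf2 and Mvd. Mvd had log2 fold changes of 0.81 ± 0.26, 0.50 ± 0.30, 0.85 ± 0.22 and -0.15 ± 0.26 in Nodes A to D, none called by edgeR. Of the uptake and transport genes, edgeR called 1 of 6 in Node A, higher, and 0 of 4, 0 of 5 and 0 of 2 in Nodes B, C and D, with 2, 1 and 0 at an unadjusted p under 0.05. DESeq2 called 1 in Node A, 1 in Node C and 0 in Nodes B and D. Of the fatty acid genes, edgeR called 0 of 8, 0 of 7, 0 of 7 and 0 of 5 in Nodes A to D. In these stages 1, 0, 1 and 0 had an unadjusted p under 0.05. DESeq2 called 1 fatty acid gene, Elovl6 in Node C, with a log2 fold change of -0.63 ± 0.19 (DESeq2 adjusted p = 0.0289). Over all genes edgeR called 2.2%, 3.37%, 2.88% and 0.04% in Nodes A to D, and DESeq2 3.3%, 5.55%, 4.56% and 0.04%. Scarb1, tested in Nodes A and B, and Npc2, tested in all 4 stages, were called in none by edgeR, with log2 fold changes from -0.49 to -0.31.

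**Figure D5:**
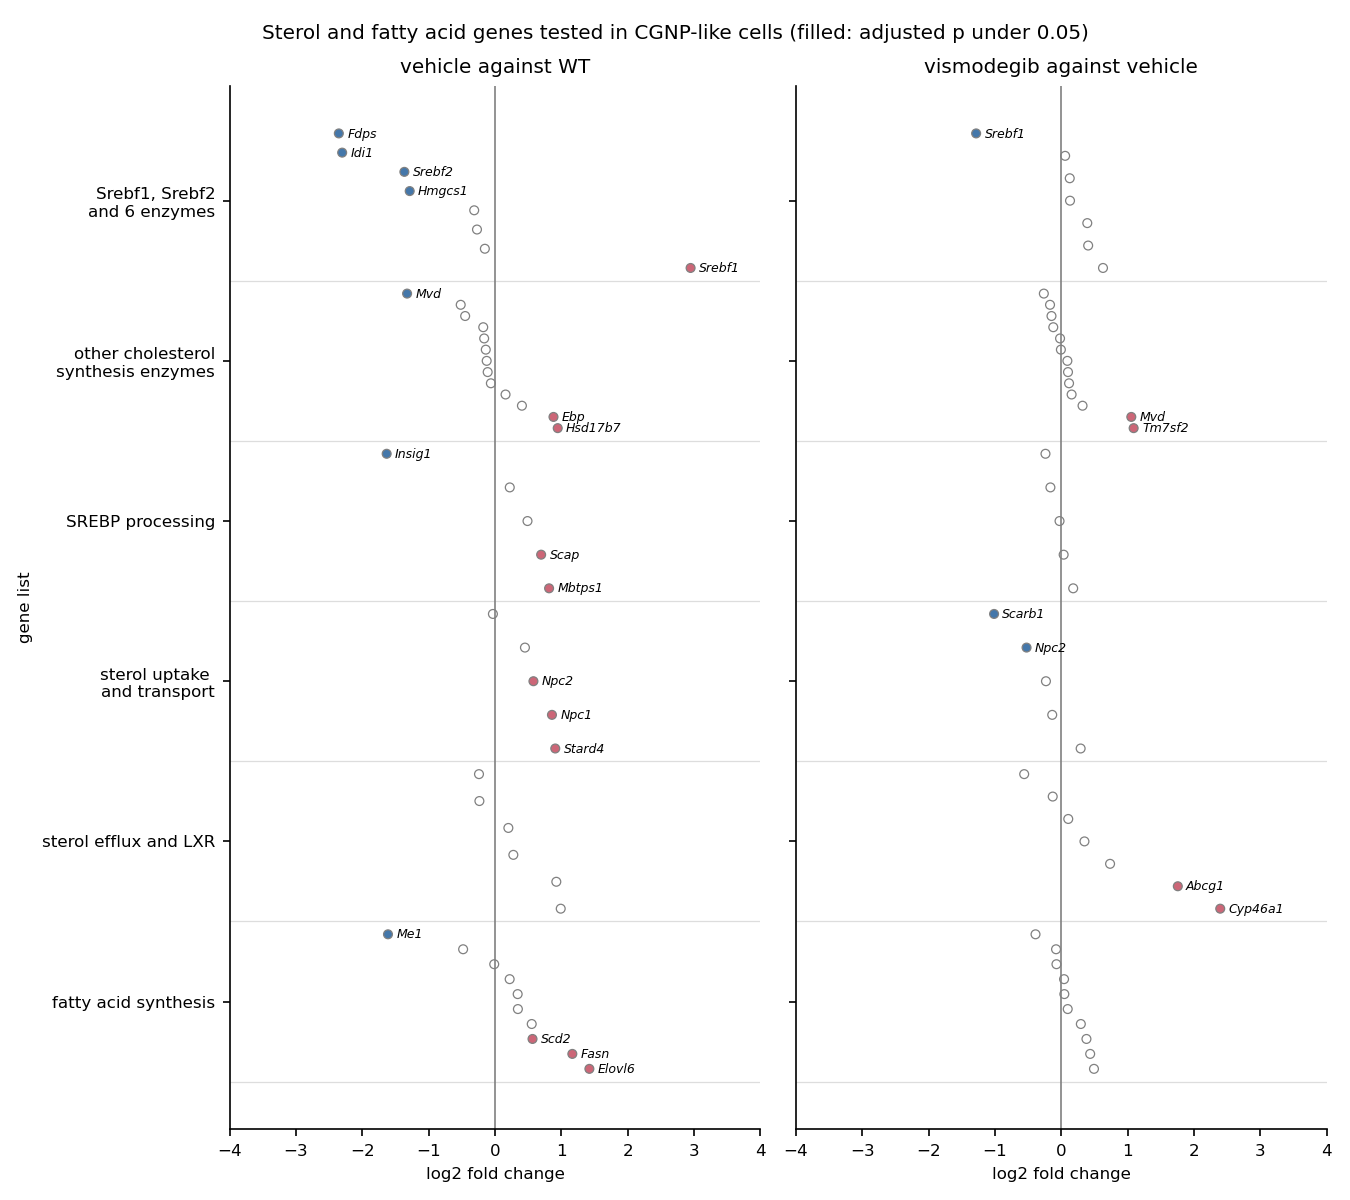
Log2 fold changes of the genes reported here in CGNP-like cells, by list, for vehicle against WT (left) and vismodegib against vehicle (right), where each point is 1 gene, filled where its adjusted p was under 0.05. On the left Srebf1 is 2.95 higher, and on the right Cyp46a1 and Abcg1 are 2.40 and 1.76 higher with vismodegib and that of Srebf1 is -1.28.

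In astrocyte-like cells of vehicle-treated tumors Insig1 fell by 3.57 ± 0.50 on the log2 scale (edgeR adjusted p = 3.35e-05), from 214 ± 101 to 26.1 ± 19.3 CPM. Of 5 other cholesterol enzymes tested, 2 fell and none rose, with a median of -0.76, where 23.3% of all genes passed, 11.2% higher and 12.1% lower. Among them Cyp51 fell by 1.43 ± 0.31 (adjusted p = 0.00179). Of 3 fatty acid genes tested, Fasn rose by 1.38 ± 0.35 (adjusted p = 0.00638). Insig1 fell by more in astrocyte-like than in CGNP-like cells, with a difference of -1.90 ± 0.44 (adjusted p = 0.00177).

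Across 30 means of a class in a group, Srebf2 was correlated with the enzymes and Srebf1 was not. The Pearson r with the mean of the 6 enzymes on the log2 scale was 0.82 for Srebf2 and -0.01 for Srebf1. The enzymes that enter that mean had r of 0.95 for Sqle, 0.94 for Hmgcs1, 0.92 for Dhcr7, 0.88 for Fdft1, 0.88 for Fdps and 0.68 for Idi1. Of 4450 genes with a mean of at least 50 CPM, list genes were set aside. Those most like the enzyme mean were then Tpgs2 (r = 0.89), Wasf1 (0.89), Ppp2r2b (0.88), Pfn2 (0.88) and Grlf1 (0.87). These genes all had a higher r than Srebf2, and how many others did was not counted. In WT, Srebf2 overlapped between astrocyte-like and CGNP-like cells, though their mean enzyme sums were 1190 and 481 CPM. The r values are a description over class means that share animals and libraries.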

How the data were processed

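Per the labels and the study's methods, the authors aligned the reads with STAR to a mouse mm10 reference with transgene sequences (the sources give more than 1 STAR version), merged barcodes with the Drop-seq tools at default settings and deposited UMI counts per gene and cell, with 3000 barcodes per WT library. Tumor libraries held a human spike-in and passed a mixed-species alignment first; WT libraries did not. The annotation version and strand setting are not given in the sources used here.

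Cells with at least 500 UMIs and 500 genes, and under 5 SD above the median, were kept. Tumor and WT cells were clustered separately (30 neighbors, resolution 0.8, python-igraph 0.11.9) without 51 sterol and fatty acid genes and named from marker lists, by rules settled after clusters were seen. No doublet caller was run. UMIs were summed per animal and class (at least 5 cells) and tested with edgeR 4.0.16 (TMM, filterByExpr, quasi-likelihood, n = 5 per group), with Benjamini-Hochberg adjustment over all genes tested and calls at an adjusted p under 0.05. SE is the log2 fold change divided by the square root of F. CPM is UMIs per 1000000 UMIs of the class. Differences between classes had the animal as block. DESeq2 1.42.0, RLE scaling, no filter, a limit of 4 SD, resolution 1.2, thinning, leave-one-out, the replicate number, label serial numbers and the tumor sets were alternatives. The tumor sets were taken from an earlier reading of these data, not from a label, and vismodegib replicate 3 was also tried in the second set. The fit was tested on simulated data. Limits for a count of 0 allow 3 UMIs and cover counting error only. The labels number the animals separately, and a lower class sum cannot part fewer transcripts from less capture.

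The 8 genes and all lists were chosen with earlier results of these data known. All 8 genes are named in each class where a result turns on them, and of the other lists the genes called in the class described, except that some genes of these lists are not reported here and not plotted, but the counts and medians cover the whole lists.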

Additional observations from a re-analysis of the deposited data

Results flagged for a closer look

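Of 117 groups of 5 animals in which a gene had at least 50 UMIs, 8 held an animal whose gap to its nearest neighbor took over 0.71 of the range, and chance flags about 1 in 20 groups. Srebf1 in vehicle replicate 1 stood at 519 CPM in CGNP-like cells and at 665 CPM in Node B-like cells, above the other tumors of its group. Srebf2 in WT replicate 4 stood at 39.5 CPM in Node A-like and at 29.4 CPM in astrocyte-like cells, below the other WT animals. Sqle in astrocyte-like cells of WT replicate 2 stood at 187 CPM, and Hmgcs1 in oligodendrocyte-like cells of WT replicate 1 at 727 CPM, each the highest of its group. In vismodegib replicate 2, Dhcr7 stood at 37.4 CPM in CGNP-like and Hmgcs1 at 104 CPM in Node B-like cells, also the highest.

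Tests of the difference between classes marked 4 results. The vismodegib effect on Srebf1 differed by 1.43 on the log2 scale between astrocyte-like and CGNP-like cells and by -1.58 between Node C-like and Node A-like cells. The change from WT to vehicle differed between astrocyte-like and CGNP-like cells by -2.53 for Srebf1 and by -1.15 for Sqle.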

How the results depend on the processing

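Counts of the 8 genes called stayed within 1.5 times the reported count in 484 of 506 recomputations. These include microglia-like, endothelial-like and vascular fibroblast-like cells, in which no gene of the 8 passed the filter on low counts. A count that stayed at 0 there says nothing about stability, so that 484 overstates it. Of 2055 recomputed log2 fold changes 15 lost and 13 gained a call. Another 100 that were called in neither fit changed sign, and none of the called ones reversed. Srebf1 fell with vismodegib in CGNP-like cells under all 25 alternatives (-1.49 to -1.08) and in Node C-like cells under all 25 (-2.52 to -1.84). The make-up of the CGNP-like class by stage differed between these groups, and its part was not tested. With vismodegib replicate 3 in the second tumor set and the set as a term, 4 genes were called for vismodegib in CGNP-like cells (1 reported). For vehicle against WT, sums thinned to the smallest total gave 2 called genes of the 8 in Node A (4 reported), 1 in Node B (4), 1 in Node D (2) and 1 in astrocyte-like cells (2). Over all genes, calls in these classes also fell, from 3344 to 1406, 2244 to 709, 1159 to 642 and 580 to 209. Without the filter on low counts 2 of the 8 genes were called in Node B, 4 in astrocyte-like and 2 in oligodendrocyte-like cells (1 reported). There the calls over all genes rose from 2244 to 4002, 580 to 1282 and 644 to 1292. Leaving out single animals gave 2 to 4 called genes of the 8 in Node B and 0 to 2 in oligodendrocyte-like cells, and progenitor-like cells alone gave 0. For differences between astrocyte-like and CGNP-like cells, thinning left 0 called genes for vismodegib (1 reported) and 1 for vehicle against WT (2 reported), resolution 1.2 left 1 of the latter, and leaving out animals gave 1 to 3. The cause was not tested, beyond the fewer UMIs of thinned sums. The replicate numbers did not pair the animals (r of same-numbered tumors from -0.136 to 0.378). With the number as a replicate block, 2 genes were called in oligodendrocyte-like cells for vehicle against WT in place of 1. Over all genes, CGNP-like calls for vismodegib went from 1572 to 2437 with the tumor set as a term, 460 within the first set and 3281 within the second, and Node C-like calls from 275 to 57 at resolution 1.2, 663 with the set and 112 to 180 without single animals (vismodegib replicate 3, 4 or 5, vehicle replicate 2 or 5). Calls of the difference between Node C-like and Node A-like cells went from 670 to 309 without vismodegib replicate 4, 386 without vehicle replicate 5 and 423 without vismodegib replicate 5. This count of 670 also went to 192 in thinned sums, 273 at resolution 1.2 and 302 with DESeq2. Calls of the difference between astrocyte-like and CGNP-like cells for vismodegib went from 265 to 118 with DESeq2 and 7 in thinned sums, and Node B-like calls from 322 to 531 with DESeq2. Astrocyte-like calls for vismodegib went from 13 to 0 in thinned sums, 1 at 4 SD, 26 with DESeq2 and 31 at resolution 1.2. Clusters led by globin kept in their stage, the tumor sets taken singly, vismodegib replicate 3 in the second set and progenitor-like cells alone were alternatives chosen after seeing the data.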
